A study of Mus musculus with 2 samples.

Results

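Cells that carried both *Cidea* and *Pparg* RNA were examined as candidate sebocytes of newborn mouse back skin. They were chosen by measured values: a droplet had to hold 2000 to 60000 unique molecular identifiers (UMIs, each counting 1 captured RNA molecule), 1000 to 8000 detected genes and at most 20% mitochondrial UMIs, with at least 2 *Cidea* UMIs and at least 1 *Pparg* UMI. Of 16453 droplets that met the limits on quality, 265 met those on *Cidea* and *Pparg*, here called Cidea+ Pparg+ cells. The other 16188 droplets served as the comparison.

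The study profiled single cells from the skin of mice at postnatal day 1, with 1 library labelled PADI4 wild type (WT) and 1 labelled PADI4 cKO, a conditional knockout in which Cre under the *Krt14* promoter acts on Padi4 fl/fl alleles; the alleles of the WT and the number of animals per library are not given in the sources used here. In both, K14-Cre also switched on a tdTomato reporter, and the tdTomato-positive, DAPI-negative cells of the dermal fraction were isolated by fluorescence-activated cell sorting (FACS) after the epidermis had been lifted off. K14-Cre is active in keratinocytes and their descendants, so the sort keeps hair follicle (HF), sebaceous and residual epidermal cells and should remove fibroblasts, adipocytes and immune cells. Both libraries were made with 10x Chromium 3' chemistry, which counts the ends of transcripts. Both were entered here as batch 1, but the methods of the study name no batch. With 1 library per genotype no test of genotype was possible: every interval given here is a 95% interval of counting error only, and animals, genotype and library preparation cannot be told apart.

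Sebocytes are the lipid-making cells of the sebaceous gland, which opens through a duct into the upper HF. They arise from keratin-rich basal progenitors, fill with droplets of triacylglycerol, wax esters and sterol esters, and finally disintegrate to release sebum. PPARγ, encoded by *Pparg*, is the nuclear receptor that drives lipid-storing differentiation in sebocytes and adipocytes, CIDEA sits on lipid droplets and enlarges them, and ELOVL3 elongates very long chain fatty acids in the gland. *Pparg* lies at chr6:115360951-115490399 on the plus strand and *Elovl3* at chr19:46131897-46135694 on the plus strand of mm10.

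The Cidea+ Pparg+ cells numbered 110 of 8661 droplets in PADI4 WT (1.27%, exact interval 1.04 to 1.53) and 155 of 7792 in the library labelled PADI4 cKO (1.99%, interval 1.69 to 2.32). Of these cells, 29 in PADI4 WT and 54 in PADI4 cKO had exactly 2 *Cidea* UMIs, 45 and 62 had 3 to 10, and 36 and 39 had more than 10. At the limit of 2 *Cidea* UMIs the intervals of the 2 shares did not overlap. By contrast, droplets with at least 2 *Pparg* UMIs and no *Cidea* UMI, called Pparg-only droplets below, made up 4.80% of each library, with 416 and 374 droplets.

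The 2 libraries held 143938990 UMIs (PADI4 WT) and 143945294 UMIs (PADI4 cKO). The Cidea+ Pparg+ cells had a median of 13219 UMIs (3248 to 50935) in PADI4 WT and 12868 (2075 to 51897) in PADI4 cKO, against 14116 and 15852 in the other droplets. Their RNA was summed per library, 1846051 UMIs in PADI4 WT and 2511962 in PADI4 cKO, and levels are given as CPM, the UMIs of a gene per 1000000 UMIs of these sums. The barcodes of 17 filtered droplets occurred in both libraries, including 1 barcode of a Cidea+ Pparg+ cell, and no barcode belonged to such a cell in both. *Padi4*, the targeted gene, was at 2 UMIs in the 110 PADI4 WT cells and at 5 UMIs in the 155 PADI4 cKO cells, and at 0.856 and 0.693 CPM in the other droplets. These 3'-end counts do not set the 2 libraries apart, and the deleted part of *Padi4* may lie outside what the reads cover, so the genotype is taken from the label, and PADI4 cKO stands below for the library labelled so.

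The values the rule used were low in most cells. *Cidea* was at a median of 4 UMIs per cell (2 to 60) in PADI4 WT and 3 (2 to 41) in PADI4 cKO, and *Pparg* at 15.5 (1 to 137) and 16 (1 to 97). The 265 cells held 87.2% and 85.6% of all *Cidea* UMIs of their filtered libraries but only 34.2% and 43.6% of the *Pparg* UMIs. *Elovl3*, which the rule did not use, followed *Cidea*: 90.0% (PADI4 WT) and 92.4% (PADI4 cKO) of its UMIs lay in these cells, at 0 to 41 and 0 to 33 UMIs per cell. Even so, most of the cells had no *Elovl3* UMI, with 46 of 110 positive in PADI4 WT (41.8%, interval 32.5 to 51.6) and 46 of 155 in PADI4 cKO (29.7%, interval 22.6 to 37.5). Among the other droplets 0.339% and 0.196% had an *Elovl3* UMI, and none of the 17 and 12 fibroblast-type droplets did (at least 10 *Col1a1* and 5 *Col1a2* UMIs; median depths of 10549 and 15169 UMIs), which allows shares of up to 17.6% and 25% when a count of 0 is set at 3 droplets.

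*Elovl3* was detected more often at higher *Cidea* counts. At exactly 2 *Cidea* UMIs, just inside the limit, 2 of 29 PADI4 WT cells and 1 of 54 PADI4 cKO cells had *Elovl3*; at 3 to 10 it was 11 of 45 and 11 of 62; above 10 it was 33 of 36 and 34 of 39. Just outside, with 1 *Cidea* UMI, 6 of 90 and 5 of 93 droplets had *Elovl3*. With *Pparg* the edge was thinner: 5 cells of each library had exactly 1 *Pparg* UMI, and 5 and 14 droplets had enough *Cidea* but no *Pparg* UMI. *Far2*, the fatty acyl-CoA reductase that makes the alcohols of wax esters, had the same order over these ranges of *Cidea*, at 69.7, 154 and 1047 CPM in PADI4 WT and 38.1, 134 and 959 CPM in PADI4 cKO. *Krt79*, a keratin of the gland duct and junctional zone, was already at 829 and 1324 CPM in the cells with 2 *Cidea* UMIs and at 2442 and 2130 CPM above 10.

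**Figure D1:**
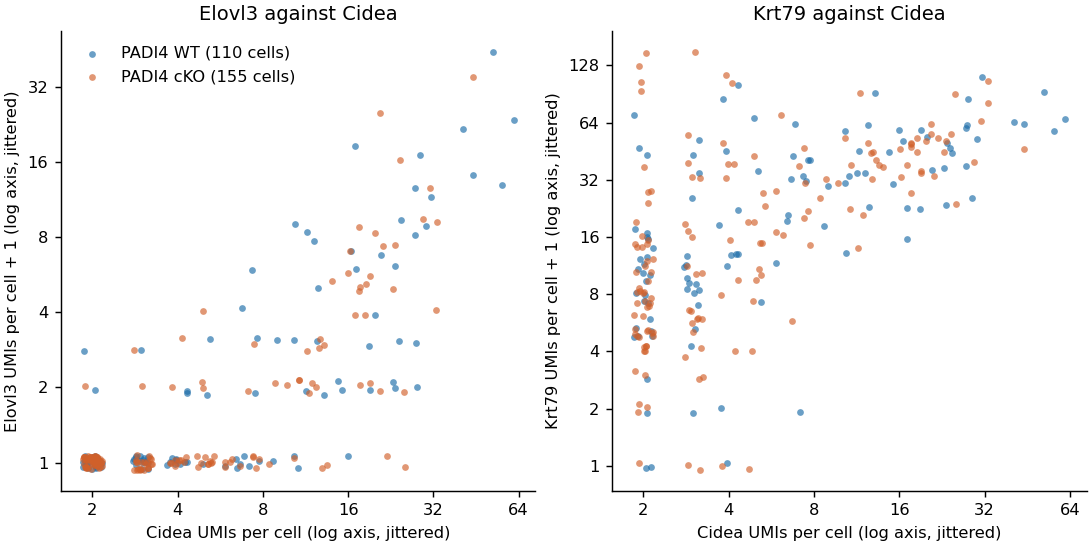
*Elovl3* (left) and *Krt79* (right) UMIs per cell plus 1 against *Cidea* UMIs per cell, on log axes with a small jitter, for the 110 PADI4 WT and 155 PADI4 cKO Cidea+ Pparg+ cells. Most cells with few *Cidea* UMIs sit on the line of no *Elovl3*, while *Krt79* is spread over all *Cidea* counts.

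The label of sebocyte was checked against this pattern. Several lipid-making markers of mature sebocytes, such as *Far2* and *Scd1*, were high in the 92 cells with *Elovl3*. They were far lower in the other 173, though above the other droplets for genes such as *Far2*. *Scd3*, also listed as a sebocyte marker at the outset, was found in only 17 of the 265 cells, at a Spearman rho of 0.13 with *Elovl3*. *Dgat2l6*, another marker listed then, was found in fewer than 10 of the 265 cells, too few for such a rho. *Krt15*, *Krt17* and other basal and duct genes were higher in the 173 cells than in the 92. *Krt79* and *Krt14* were present in both. The set is therefore named here by its 2 genes and its parts are called Elovl3-positive and Elovl3-negative. *Elovl3* was listed as a marker at the outset, but the split at 1 UMI was made after its values had been seen, and a cell without an *Elovl3* UMI may be 1 in which it was missed. Elovl3-positive cells were deeper, with medians of 18616 and 16174 UMIs against 11216 and 11858, and across the 265 cells *Elovl3* counts ranked with total UMIs at a Spearman rho of 0.30. After each cell was thinned to 2000 UMIs, 14.5% (PADI4 WT) and 8.39% (PADI4 cKO) of the cells kept an *Elovl3* UMI. As a share of all filtered droplets the Elovl3-positive cells were at 0.531% (interval 0.389 to 0.708) in PADI4 WT and 0.590% (0.433 to 0.787) in PADI4 cKO, which overlapped. The Elovl3-negative cells were at 0.739% (0.570 to 0.943) and 1.40% (1.15 to 1.69), which did not.

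Against all other droplets, 9198 genes were compared (at least 50 UMIs in the 265 cells, or that many foreseen at the others' level; *Cidea* and *Pparg* left out), and 2.29% of them were at least 4-fold higher in both libraries while 1.09% were at least 4-fold lower. The median gene differed by -0.05 and 0.00 on the log2 scale. Since the cells were selected on genes of the same libraries, these differences describe the cells and are not a test. Enzymes and a transporter of lipids were among the 20 genes highest in both libraries. *Far2* was at 480 CPM against 1.04 in PADI4 WT and at 389 against 1.16 in PADI4 cKO. *Soat1*, which esterifies cholesterol, was at 858 against 6.03 CPM and at 561 against 5.24. *Cd36*, a fatty acid transporter and a classical PPAR target, was at 63.9 against 0.0617 CPM and at 37.8 against 0.0462. Not all of the cells carried these genes: *Far2* was found in 57 of 110 and 66 of 155, *Soat1* in 58 and 58. *Cd36* was found in 25 and 23 cells, with 118 of 118 and 89 of 95 of its UMIs in Elovl3-positive cells.

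Enzymes of steroid synthesis were also among the 20. *Hsd3b6*, a 3β-hydroxysteroid dehydrogenase, was at 68.8 CPM in PADI4 WT and 33.4 CPM in PADI4 cKO, against 0.0231 and 0.0385 in the other droplets, though 33.3% of the 31-base words at its transcript ends also occur in other genes such as *Hsd3b2* and *Hsd3b3*. *Cyp17a1*, the 17α-hydroxylase of androgen synthesis, was at 110 against 0.208 CPM and at 57.7 against 0.208. *Hsd3b6* was found in 20 of 110 and 22 of 155 cells and *Cyp17a1* in 33 and 33. Elovl3-positive cells held 125 of 127 and 79 of 84 UMIs of *Hsd3b6*, and 200 of 203 and 127 of 145 of *Cyp17a1*. *Mc5r*, the melanocortin receptor of sebaceous glands, was at 26.5 against 0.116 CPM and 13.5 against 0.169, with 23 of 110 and 15 of 155 cells positive. *Gm436*, with no role stated here, was at 55 UMIs in the PADI4 WT cells and at 0 UMIs in the other PADI4 WT droplets. This is at least 1288-fold higher when the others are set at 3 UMIs. *Gm436* was found in 22 and 20 cells, with 54 of 55 and 52 of 56 UMIs in Elovl3-positive cells. The rest of the 20 highest were *Cyp2g1*, *Elovl3*, *Fa2h* (a fatty acid 2-hydroxylase), *Pnpla5* (a lipid droplet lipase), *Aldh1a7*, *Aadac*, *Zfp385b*, *Tmem56*, *Serpina3b*, *Tmem45b*, *Acer1* (an alkaline ceramidase), *Aadacl3* and *Nudt17*.

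**Figure D2:**
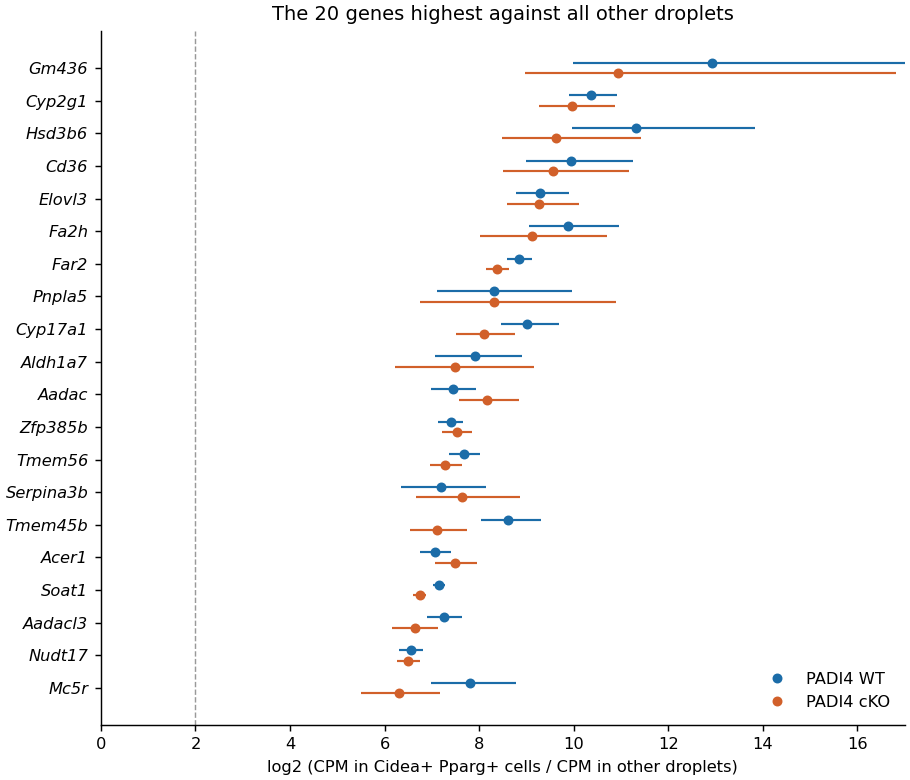
Log2 ratio of CPM in Cidea+ Pparg+ cells to CPM in all other droplets for the 20 genes highest by the smaller ratio of the 2 libraries, with 95% counting intervals and a dashed line at the 4-fold limit. All 20 lie far right of that line in both libraries; the *Gm436* point of PADI4 WT rests on the 0.5 UMI added to each sum and is no bound.

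Starts of 3 of these 20 genes are shown as examples with different roles in lipid handling: the fatty acid transporter *Cd36*, a known PPAR target, the lipase *Pnpla5*, and the ceramidase *Acer1*, whose counts ranked closest to *Elovl3*. Each line gives the 250 bases before an annotated start (RefSeq promoter table, GRCm38.p6, written 5' to 3' on the gene's strand). Capitals mark the CCAAT box (CCAAT or ATTGG) and the letters AGGTCA or TGACCT, called the AGGTCA motif below. The AGGTCA motif is only a part of a PPAR site, so a match is not a whole PPAR site. The windows are chr5:17835897-17836146 (minus strand, 1 of the starts of *Cd36*), chr15:84123176-84123425 (minus strand, *Pnpla5*) and chr17:56982127-56982376 (minus strand, *Acer1*).
Cd36: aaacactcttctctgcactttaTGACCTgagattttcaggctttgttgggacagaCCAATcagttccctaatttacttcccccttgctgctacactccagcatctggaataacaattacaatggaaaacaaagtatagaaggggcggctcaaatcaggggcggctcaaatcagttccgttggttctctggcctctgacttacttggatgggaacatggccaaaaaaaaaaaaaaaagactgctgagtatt
Pnpla5: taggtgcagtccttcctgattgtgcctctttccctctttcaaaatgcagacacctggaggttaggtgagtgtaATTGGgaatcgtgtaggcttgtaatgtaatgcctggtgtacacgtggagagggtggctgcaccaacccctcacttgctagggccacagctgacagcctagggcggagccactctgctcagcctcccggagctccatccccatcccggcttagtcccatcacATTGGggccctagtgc
Acer1: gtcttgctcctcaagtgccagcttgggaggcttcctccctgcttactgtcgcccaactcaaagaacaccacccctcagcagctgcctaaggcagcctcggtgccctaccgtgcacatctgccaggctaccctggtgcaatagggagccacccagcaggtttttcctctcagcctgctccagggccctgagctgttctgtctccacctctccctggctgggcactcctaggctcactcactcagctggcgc

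The *Cd36* window held 1 AGGTCA motif (as TGACCT) and 1 CCAAT box, the *Pnpla5* window 2 CCAAT boxes, and the *Acer1* window neither. Of the 20 genes highest against the other droplets, 12 had 15 such promoters in the table. The AGGTCA motif occurred on either strand in 1 of these promoters and a CCAAT box in 6, against 14% and 33.8% of all 32851 promoters. TATAAA occurred in 2 of the 15 and GGGCGG in 5, against 12.4% and 32.7% of all. A match describes letters in these windows and does not show a site in use.

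Lipid synthesis was described by gene lists. Of 25 compared genes of fatty acid synthesis and elongation (33 in the list, *Elovl3* included), 8 were 4-fold or more above the other droplets in both libraries and none was that far below, with median log2 ratios of 2.04 in PADI4 WT and 1.58 in PADI4 cKO. *Scd1*, the Δ9 desaturase that makes oleate and palmitoleate, was at 443 against 14.2 CPM and at 179 against 14.6, with 11.1% of its terminal words shared with *Scd3* and 1 further model. *Elovl6*, which elongates palmitate, was at 1361 against 74.9 CPM and at 727 against 78.2. *Fasn*, the fatty acid synthase itself, stayed under the limit at 115 against 27.9 and 76.0 against 28.0 CPM. Per cell, the list took a median of 0.286% of the UMIs in PADI4 WT (0.0413 to 3.18) and 0.229% in PADI4 cKO (0.0375 to 2.06), so that the highest cells held many times the share of the lowest.

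Genes that store and handle the lipid followed. Of the 12 compared genes of triacylglycerol, wax and sterol esters, 6 were 4-fold or more higher, among them *Dgat2* (50.9 against 2.94 and 35.0 against 2.86 CPM), which makes triacylglycerol, and *Awat2* (24.4 against 3.62 and 35.4 against 3.47 CPM), a wax synthase. Of the 9 compared lipid droplet and lipase genes, 5 were higher, including the droplet coat gene *Plin2* at 372 against 25.4 and 273 against 22.4 CPM. Uptake and binding genes were higher in 4 of 11, with *Apoe* at 12656 against 1564 and 11793 against 1308 CPM. Outside lipid storage, 5 of 24 peroxisome genes were higher, while mitochondrial fatty acid oxidation had 1 of 16 and lysosomal genes 0 of 14. Cholesterol synthesis had 1 of 23.

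Regulators gave a shorter list. Beyond *Pparg*, 5 of 16 compared transcription factors were 4-fold or more higher. *Ppara*, a sister receptor of PPARγ, was at 114 against 7.89 CPM in PADI4 WT and 83.2 against 6.60 in PADI4 cKO. *Gata6*, a factor of the sebaceous duct, was at 38.5 against 6.26 and 55.3 against 6.79 CPM, and the adipogenic factors *Cebpa* and *Cebpb* were also among the 5. *Prdm1*, which encodes BLIMP1, differed little, at 29.3 against 30.4 and 42.2 against 36.7 CPM. Among 12 compared receptors 2 passed the limit, *Mc5r* being 1 of them.

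Keratinocyte genes were retained. None of the 12 basal keratinocyte genes was 4-fold higher or lower, and *Krt14* was at 2908 against 1169 CPM in PADI4 WT and at 2959 against 765 in PADI4 cKO. Of 10 genes of the junctional zone, duct and upper HF, 4 were higher: *Krt79* (1712 against 127 and 1626 against 95 CPM), *Cst6*, *Gata6* and *Aldh3a1*. Genes of the HF matrix and hair shaft went the other way, with 5 of 8 at least 4-fold lower, including *Lef1* at 80.7 against 440 and 35.8 against 456 CPM and *Shh* at 5.42 against 54.5 and 3.58 against 63.8 CPM. *Shh*, *Acta2*, *Kcnb2*, *Dct*, *Pcsk2*, *Cldn10*, *Dcn*, *Cdc25b*, *Scube3* and *Ugcg* were the 10 genes furthest below the other droplets. They were ranked by the larger ratio of the 2 libraries.

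Markers of cells outside the epithelium were low, while those of several other follicle and epidermal layers were not. Adipocyte genes, which could share *Cidea* and *Pparg*, summed to 3.25 CPM in PADI4 WT and 0.398 CPM in PADI4 cKO, with 6 of 10 at 0 UMIs, *Adipoq* among them, and *Fabp4* at 1 UMI in each library. Melanocyte genes had UMIs in 22 of 110 and 53 of 155 cells, at 19.0 and 61.7 CPM against 128 and 130 in the other droplets. Immune genes summed to 2 and 5 UMIs, endothelial genes to 1 and 4 and erythroid genes to 4 and 5. The fibroblast list summed to 140 and 95.9 CPM, against 769 and 804 in the other droplets, with *Dcn* at 161 of its 259 UMIs in PADI4 WT and 84 of 241 in PADI4 cKO and *Col1a1* at 1 and 2 UMIs. Suprabasal epidermal genes summed to 573 and 551 CPM, above the 398 and 291 CPM of the other droplets, with UMIs in 91 and 137 cells and 1 of 7 compared genes, *Sbsn*, 4-fold or more higher. Inner root sheath genes summed to 558 and 266 CPM against 856 and 787, with UMIs in 99 and 140 cells, and outer root sheath genes to 1284 and 1666 CPM against 2022 and 2003. The part of these layers in the results was not tested.

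Free RNA, estimated from collagen and hemoglobin UMIs and the empty droplets, could make up at most 8.79% and 6.40% of the UMIs of these cells. Doublet scores passed the threshold in 7 of 110 (6.36%) and 14 of 155 cells (9.03%), against 4.24% and 4.2% of all droplets. In PADI4 WT the 3 cells highest in the fibroblast list, with 118 of its 259 UMIs, were among them. The part of doublets in the results was not tested beyond leaving out the cells over the threshold.

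Nearness to the Pparg-only droplets was measured in the same genes. Relative to those 416 and 374 droplets, 3.15% of genes were at least 2-fold higher in both libraries and 2.92% at least 2-fold lower. Of fatty acid synthesis genes 15 of 25 were higher, and of cholesterol synthesis genes 10 of 23. *Krt79* was at 1712 against 540 CPM in PADI4 WT and 1626 against 385 in PADI4 cKO. The list of the junctional zone, duct and upper HF was near equal, at a summed 4354 against 4550 CPM in PADI4 WT and 5166 against 4792 in PADI4 cKO. Of its 10 compared genes 4 were higher and 1 lower. G2 and mitosis genes were lower in 13 of 15 and S phase genes in 5 of 18, with *Mki67*, a marker of cycling cells, at 142 against 294 and 48.6 against 148 CPM.

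Within the set, the Elovl3-positive and Elovl3-negative cells differed widely. Of 8450 genes compared, 4.25% were at least 2-fold higher in the Elovl3-positive cells of both libraries and 7.31% at least 2-fold lower. Depth differed between the 2 parts as given above, and its part in these differences was not tested. Cholesterol synthesis was higher in 17 of 22 genes, with median log2 ratios of 2.46 and 1.65, where the set as a whole had medians of 0.98 and 0.24 against the other droplets. Its summed level was 4844 CPM in Elovl3-positive against 933 CPM in Elovl3-negative PADI4 WT cells, and 3288 against 1022 in PADI4 cKO, where the other droplets were at 1261 and 1218. *Hmgcs1*, the synthase that feeds the mevalonate pathway, was at 610 against 147 and 484 against 162 CPM.

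Fatty acid synthesis was higher in 14 of 24 genes, at a summed 10024 against 1746 CPM in PADI4 WT and 7601 against 2157 in PADI4 cKO, with medians of 1.65 and 1.53 that were the same when *Fa2h* was set at its bound. *Fa2h* had 153 and 69 UMIs in Elovl3-positive cells and 0 in Elovl3-negative cells, at least 54.1-fold and 42.6-fold higher against 3 UMIs. *Scd1* was at 886 against 24.2 CPM and 411 against 53.3, and was detected in 45 of 46 and 42 of 46 Elovl3-positive cells but in 13 of 64 and 27 of 109 Elovl3-negative cells. *Fabp5*, a fatty acid-binding protein, was at 6464 against 324 CPM and 5742 against 374. Ester synthesis genes were higher in 8 of 12 and lipid droplet genes in 6 of 8, with *Far2* at 926 against 60.0 and 931 against 95.6 CPM.

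Basal genes had the opposite order, lower in 9 of 12 genes of the Elovl3-positive cells, with medians of -2.06 and -1.53. *Krt15*, a keratin of HF stem cells and basal cells, was at 119 against 1207 CPM in PADI4 WT and at 295 against 1166 in PADI4 cKO. *Trp63*, which encodes the basal factor p63, was at 190 against 924 and 266 against 992 CPM. *Krt17* was at 481 against 2364 and 493 against 2559 CPM, and 6 of 10 junctional and duct genes were lower with it. *Krt14* and *Krt79* were exceptions, with *Krt79* at 2311 against 1146 and 2187 against 1323 CPM. Immediate early and heat shock genes, which respond to tissue dissociation among other stimuli, were lower in 7 of 14, *Jun* at 385 against 1018 and 608 against 1317 CPM. *Apoe* was at 12783 against 12535 and 13373 against 10940.0 CPM.

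**Figure D3:**
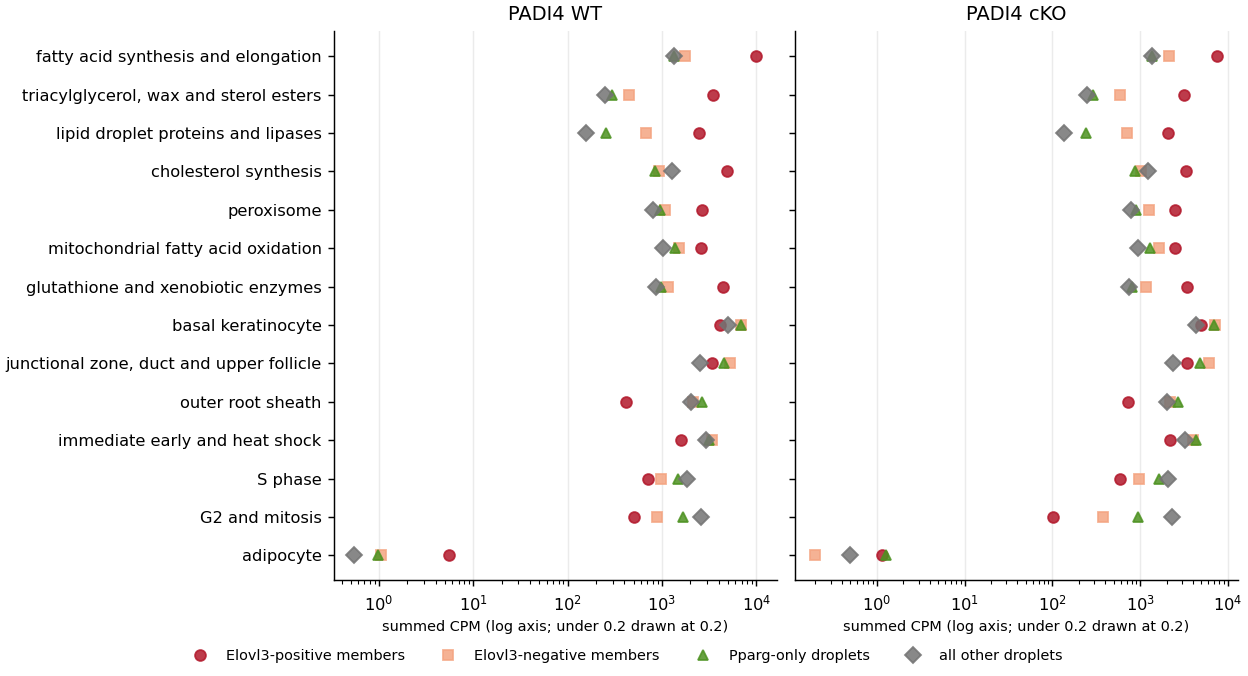
Summed CPM of 14 gene lists on a log axis in Elovl3-positive cells, Elovl3-negative cells, Pparg-only droplets and all other droplets, PADI4 WT at left and PADI4 cKO at right. Lipid lists place the Elovl3-positive cells apart at the right, basal and outer root sheath lists place them at or left of the Elovl3-negative cells, and adipocyte genes are lowest of all, the Elovl3-positive PADI4 WT cells reaching 5.58 CPM.

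**Figure D4:**
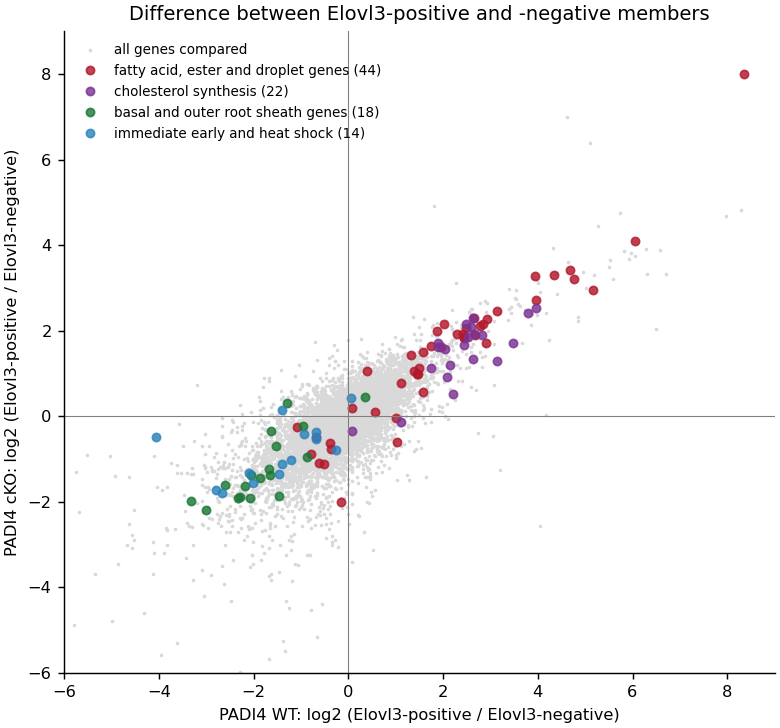
Log2 ratio of CPM in Elovl3-positive to Elovl3-negative cells for each gene, PADI4 WT on the horizontal and PADI4 cKO on the vertical axis, with 4 groups of lists in colour. Lipid and cholesterol genes lie mostly in the upper right and basal and outer root sheath genes mostly in the lower left of both libraries.

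The genes whose counts ranked most like *Elovl3* across the 265 cells were *Acer1* (Spearman rho 0.81), *Far2* (0.80), *Dhrs7* (0.79), *Psapl1* (0.78), *Mgst1* (0.78), *Scd1* (0.78), *Cyp2g1* (0.77), *Soat1* (0.77), *Elovl6* (0.77) and *Emc9* (0.76). All points share libraries and depth, so these are given as a description. *Mgst1*, a membrane glutathione transferase, was at 2995 against 395 CPM and 2376 against 382. The lowest rho belonged to *Cdh13* (-0.58), *Ncam1* (-0.57), *Fst* (-0.55), *Csgalnact1* (-0.55) and *Krt15* (-0.55). Of the 11 genes with *Elovl3* itself, 8 had 9 promoters in the table. The AGGTCA motif occurred in 1 of these promoters (*Elovl6*) and a CCAAT box in 2.

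Between the libraries the Cidea+ Pparg+ cells were alike for most genes. Of 8453 genes with at least 50 UMIs in the cells, 0.828% were at least 2-fold higher and 1.16% at least 2-fold lower in PADI4 cKO, around a median log2 ratio of 0.02, and 1561 genes had a counting interval clear of 0. Many of the widest differences sat in 1 cell or also stood in the other droplets. *Krt6a*, a keratin of stressed and companion-layer epithelium, was 2.90 higher on the log2 scale, but 179 of its 187 PADI4 cKO UMIs came from 1 cell, as did 97 of 99 UMIs of *Sprr1a* (3.1), a cornified envelope precursor; within the study's ribosomal and hemoglobin limits both turned, to -1.54 and -2.19. *Krt71*, a keratin of the inner root sheath, was at -4.48, with 83 of 90 PADI4 WT UMIs in 1 cell, and at -1.20 without the highest cell of each library. *Krt25*, of the same sheath, moved from -3.79 to -2.09. *Gm10260* (2.96 in the cells and 3.57 in the other droplets), *Gm21887*, *Hmga1b* and *Gm8797* share 60.5% to 90.2% of their terminal words with other genes, so their counts are uncertain.

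Other entries rested less on 1 cell, though *Cdh6* was found in few cells. *Lrmda*, named for melanocyte differentiation, was at 52 UMIs in 19 PADI4 WT cells and 271 UMIs in 42 PADI4 cKO cells, a log2 ratio of 1.93 (interval 1.5 to 2.39). *Mitf*, the melanocyte master factor, was at 32 and 148 UMIs, a log2 ratio of 1.75 against 0.49 in the other droplets, while the melanocyte genes *Tyr*, *Tyrp1*, *Pmel*, *Mlana* and *Sox10* were at 0 UMIs in both libraries. The Pparg-only droplets were also higher in PADI4 cKO, with *Lrmda* at 37.3 CPM in PADI4 WT and 55.1 in PADI4 cKO. Their melanocyte list summed to 104 and 235 CPM. *Cdh6*, a cadherin, had 50 UMIs in 8 cells against 5 in 3 cells. *Ccnb2*, a mitotic cyclin, had 64 UMIs in 15 cells against 15 in 8, a log2 ratio of -2.50 (interval -3.46 to -1.71) against -0.27 in the other droplets. With it, 9 of 13 G2 and mitosis genes were at least 2-fold lower in PADI4 cKO, at a median of -1.26. The Pparg-only droplets differed in the same direction, with *Ccnb2* at 37.2 CPM in PADI4 cKO against 55.8 in PADI4 WT. Their G2 and mitosis list summed to 944 against 1667 CPM, where that of the Cidea+ Pparg+ cells summed to 280 against 702 CPM. However, 3 cells held 624 of the 1296 UMIs of this list in PADI4 WT and 3 held 336 of 703 in PADI4 cKO. All but 1 of these PADI4 WT cells were over the doublet threshold, among them the highest, as was 1 of these PADI4 cKO cells. The summed levels of this list may therefore come in part from doublets, and they are not given here without the cells over the threshold. Without the highest cell of each library *Ccnb2* was at -2.60 and *Mki67* at -1.56, against -1.54 with all cells.

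**Figure D5:**
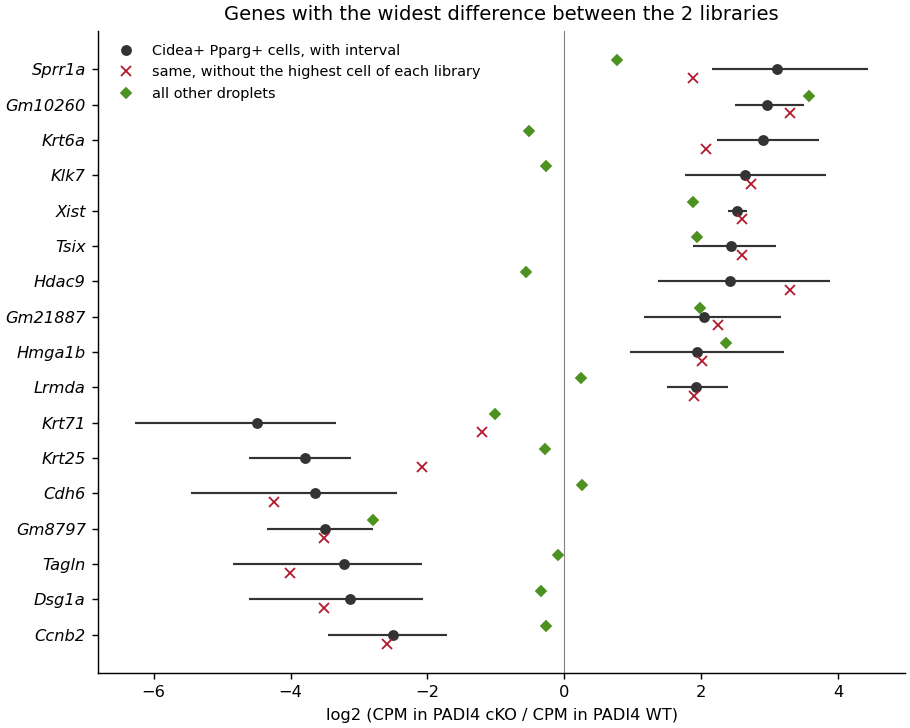
Log2 ratio of CPM in PADI4 cKO to PADI4 WT for the genes with the widest differences in Cidea+ Pparg+ cells (black, with 95% counting intervals), the same without the highest cell of each library (red crosses) and in all other droplets (green). The Y-linked genes are not drawn; *Krt71* and *Krt25* move far toward 0 without 1 cell, and *Xist*, *Tsix*, *Gm10260*, *Gm21887*, *Hmga1b* and *Gm8797* differ alike in the other droplets.

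The libraries also differed in sex-linked RNA. *Xist*, expressed from the inactive X of females, was at 260 CPM in PADI4 WT and 1496 CPM in PADI4 cKO cells, a log2 ratio of 2.52 against 1.88 in the other droplets. *Uty* was at 321 UMIs against 0, at least 146-fold higher in PADI4 WT, and *Eif2s3y* at 166 against 0, at least 75.3-fold. Of the 110 PADI4 WT cells, 75 had only Y-linked UMIs, 22 only *Xist*, 12 both and 1 neither; of the 155 PADI4 cKO cells, 153 had only *Xist* and 2 both. The PADI4 WT library thus held RNA of both sexes and the PADI4 cKO library almost only of females, and sex, animal and genotype cannot be told apart.

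For lipid genes the library ratio is given over all Cidea+ Pparg+ cells and in each part. *Elovl3*, which sets the parts, was itself at -0.87, and was found in 29.7% of the PADI4 cKO against 41.8% of the PADI4 WT cells. Each part may therefore hold unlike cells in the 2 libraries. For example, 1 Elovl3-negative PADI4 cKO cell had 48 *Far2* and 18 *Scd1* UMIs. The share of the split itself in the ratios of each part, including their opposite signs, was not tested. *Scd1* was at -1.31 (interval -1.48 to -1.14) in the PADI4 cKO cells as a whole, at -1.11 (-1.29 to -0.93) in the Elovl3-positive cells and at 1.12 (0.46 to 1.87) in the Elovl3-negative cells, against 0.04 in the other droplets. *Elovl6* was at -0.90 in all, -0.64 in Elovl3-positive and 0.91 in Elovl3-negative cells, and *Soat1* at -0.61, -0.31 and 0.95. *Far2* was at -0.31 in all and at 0.01 (-0.13 to 0.15) in the Elovl3-positive cells. *Cyp2g1* was at -1.63 in all, -1.32 (-1.53 to -1.11) in Elovl3-positive and 1.38 (0.26 to 2.88) in Elovl3-negative cells, and at -1.24 in the other droplets. Of 25 fatty acid synthesis genes 3 were at least 2-fold lower, *Scd1*, *Fa2h* (-1.59, and -1.12 in Elovl3-positive cells) and *Acacb* (-1.23), and none higher; of 22 cholesterol synthesis genes *Mvd* (-1.32) and *Insig1* (-1.08) were lower. *Krt79* was at -0.07 and *Awat2* at 0.53.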

How the data were processed

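The 2 raw matrices of UMI counts were analysed. The authors aligned reads to mm10 and counted UMIs with Cell Ranger (7.1.0 per the file headers); the deposited counts cover 32285 genes and every barcode, before any filter. Droplets were filtered as described, and their counts were summed per library and set, with 1 library per genotype. The study's own removal of free RNA and its ribosomal and hemoglobin limits were not part of the main processing. Ratios carry 0.5 UMI added per sum and exact conditional binomial intervals, shares exact Clopper-Pearson intervals; both cover counting error only. Named genes were the listed genes, the 20 highest and 10 lowest against other droplets, and the 10 highest and lowest between libraries. *Padi4*, sex-linked genes and the 10 genes ranking most like *Elovl3* were also named. Against other droplets the highest were ranked by the smaller ratio of the 2 libraries and the lowest by the larger ratio. Members and lists were chosen with earlier results of these data known. The automatic doublet threshold marked 4 PADI4 WT droplets, so that of PADI4 cKO was used for both. Alternatives covered UMI limits, doublets, free RNA, gene minimum, weighting and sex. Scripts were tested on simulated data. Tools were Python 3.11.15, NumPy 2.4.6, SciPy 1.17.1, pandas 2.3.3, Scanpy 1.11.5 (Scrublet) and Matplotlib 3.10.9. A few listed genes counted here are not reported by name.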

Additional observations from a re-analysis of the deposited data

Results flagged for a closer look

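A pair of droplets outside the quality limits also met those on *Cidea* and *Pparg* and entered no comparison. In PADI4 WT, 1 droplet with 4 *Cidea* and 4 *Pparg* UMIs held 59318 UMIs and 8426 genes, above the limit on genes. In PADI4 cKO, 1 droplet with 3 *Cidea* and 5 *Pparg* UMIs held 1816 UMIs, below the limit on depth. Neither had an *Elovl3* UMI.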

How the results depend on the processing

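With 1 library per genotype these results describe 2 libraries, and intervals cover counting error only. No paired analysis was possible because each genotype has 1 library. With at least 1 *Cidea* UMI the shares were 2.31% (PADI4 WT) and 3.18% (PADI4 cKO), and with at least 3 they were 0.935% and 1.30%. Among droplets with *Xist* alone the PADI4 WT share was 0.982%. PADI4 cKO was higher in each, but no interval was computed for these shares. The 100 genes lower than in other droplets became 288 without doublets, 313 with the mean CPM per cell, 222 after free RNA was subtracted, 155 at a minimum of 20 UMIs, 199 with *Xist* cells, 258 in Elovl3-positive and 38 in Elovl3-negative cells; the 211 higher became 106 in Elovl3-negative cells. Between libraries, the 70 genes higher in PADI4 cKO became 111 after free RNA was subtracted, 213 and 31 at minima of 20 and 100 UMIs, and 485 with *Xist* cells, where PADI4 WT had 22 cells. The genes themselves changed more than their number. Of the 70, only 8 recurred among 72 in Elovl3-positive cells and 21 among 59 with at least 1 *Cidea* UMI. Without doublets 51 of the 70 recurred among 88, and 51 of the 98 lower among 89. Of the 98 lower, 8 recurred among 122 with *Xist* cells. The 98 lower became 206 and 46 at those minima, 65 in Elovl3-positive and 47 in Elovl3-negative cells. Under the study's ribosomal and hemoglobin limits *Sprr1a* and *Krt6a* turned to -2.19 and -1.54, and with *Xist* cells *Krt71* turned to 0.33; the cause was not tested. Of the single-gene values between libraries, 259 stayed within their counting interval, 58 moved and 3 reversed; of those against other droplets, 357 stayed and 93 moved without a change of sign. The splits by *Elovl3* and the runs without the highest cell were added after seeing the data.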

Other observations

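Enzymes of glutathione and xenobiotic metabolism formed a mixed group in the Cidea+ Pparg+ cells. Of 15 compared genes 5 were at least 4-fold above the other droplets in both libraries: *Mgst1*, *Cyp2g1*, *Aldh3b2*, *Aldh3a1* and *Ephx2*. They split within the set. *Aldh3b2*, an aldehyde dehydrogenase that acts on fatty aldehydes, was at 196 CPM in Elovl3-positive against 21.1 CPM in Elovl3-negative cells of PADI4 WT and at 174 against 32.5 in PADI4 cKO. *Aldh3a1*, another aldehyde dehydrogenase, had the opposite order, at 17.9 against 100 CPM and 68.2 against 120. *Ephx2*, a soluble epoxide hydrolase, was at 22.3 against 49.5 and 36.3 against 45.4 CPM.

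Peroxisomal genes included *Crat*, the carnitine acetyltransferase, at 68.3 against 0.949 CPM in the other droplets of PADI4 WT and 33.8 against 0.57 in PADI4 cKO, and *Hsd17b4*, of peroxisomal β-oxidation, at 322 against 51.0 and 256 against 48.9 CPM. In contrast, *Fads1*, a Δ5 desaturase, was at 2.17 against 8.75 and 1.99 against 8.76 CPM, on 4 and 5 UMIs.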
